A study of Homo sapiens with 3 samples.

Results

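The androgen-regulated prostate genes described here are 40 genes known to respond to androgen in prostate cells, taken by symbol from the gene table of 22Rv1 WT cells. All 40 had a row among the 27024 counted genes. The genes are on the list as known targets and were taken by symbol, not by level. The list was nevertheless made with earlier results of these data known. The study deleted an enhancer linked to prostate cancer risk in 22Rv1 cells, an established human prostate carcinoma line, and sequenced RNA from deleted and intact cells. The 3 libraries analysed here are of WT genotype, grown in RPMI1640 medium with fetal bovine serum and antibiotics, and no androgen, antiandrogen or serum depletion is named for them. The KO libraries were not analysed here. The study's text describes the WT samples as control clones grown from single cells, as biological replicates and, in a figure legend, as different lines. The sample labels do not say which. The SD therefore measures the spread between these 3 samples, which may be clonal, biological or technical. The p-values test that spread, in the first test below against counting error alone, so they also depend on the number of reads. With 1 group there is no comparison of conditions, and the values below are levels in WT cells and their spread.

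Androgen is a steroid hormone, and its effect on a gene runs through androgen response elements in DNA, which are pairs of short half-sites. In the luminal cells of the prostate its targets include secreted proteases of the kallikrein family, enzymes of lipid and sugar metabolism, and proteins of protein folding and transcription. In prostate cancer the same targets are read as a measure of androgen response, and the product of KLK3 is the blood marker PSA.

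Levels are given as normalized counts, that is, reads divided by a factor for the depth of each library, or as normalized counts per kilobase of transcript where genes are compared with each other. The libraries held 38252744, 35675670 and 38629080 reads in WT replicates 1, 2 and 3, recovered from the normalized counts. A gene was taken as expressed at 1 CPM (reads scaled by library size, as edgeR gives them) or more in each of the 3 libraries, where 1 CPM was about 30.3 normalized counts. The cell type labels were checked against markers. The luminal markers KRT8, KRT18, HOXB13, FOLH1, EPCAM and CDH1 (6 genes) were all expressed, with summed levels between 70487 and 74219 normalized counts per library, while the basal markers KRT5, KRT14 and TP63 had no read in any library. Of 5 stromal markers COL1A1, LUM and VIM were expressed, with a summed level of 715 to 775 over the list, and of 4 immune markers only CD68 was, with a summed level of 60.9 to 81.4. All errors below are SD over the 3 libraries (n = 3).

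The androgen-regulated genes were mostly expressed, over a wide range of levels. Of the 40 genes, 33 (82.5%) were expressed, against 47.7% of all counted genes. The other 7, SGK1, TRPM8, STEAP4, GNMT, EAF2, MAF and ADAM7, were below 1 CPM in at least 1 library. The median level of the 40 genes was 1823 ± 75.9 normalized counts, and that of the 33 expressed ones 2736, beside 1113 for all expressed genes. Per kilobase the median of the expressed members was 729, beside 315 for all expressed genes, and 23 of the 33 lay above that second value. Expressed members had somewhat longer transcripts, with a median of 4116 bases against 3332. No test was made of these medians, since the list was assembled from genes known in prostate. The 40 genes took 0.48%, 0.485% and 0.484% of the reads of replicates 1, 2 and 3. The 5 with the highest normalized counts, ZBTB10, FKBP5, ELL2, PMEPA1 and NCAPD3, held between 53.4% and 54.3% of those member reads.

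**Figure D1:**
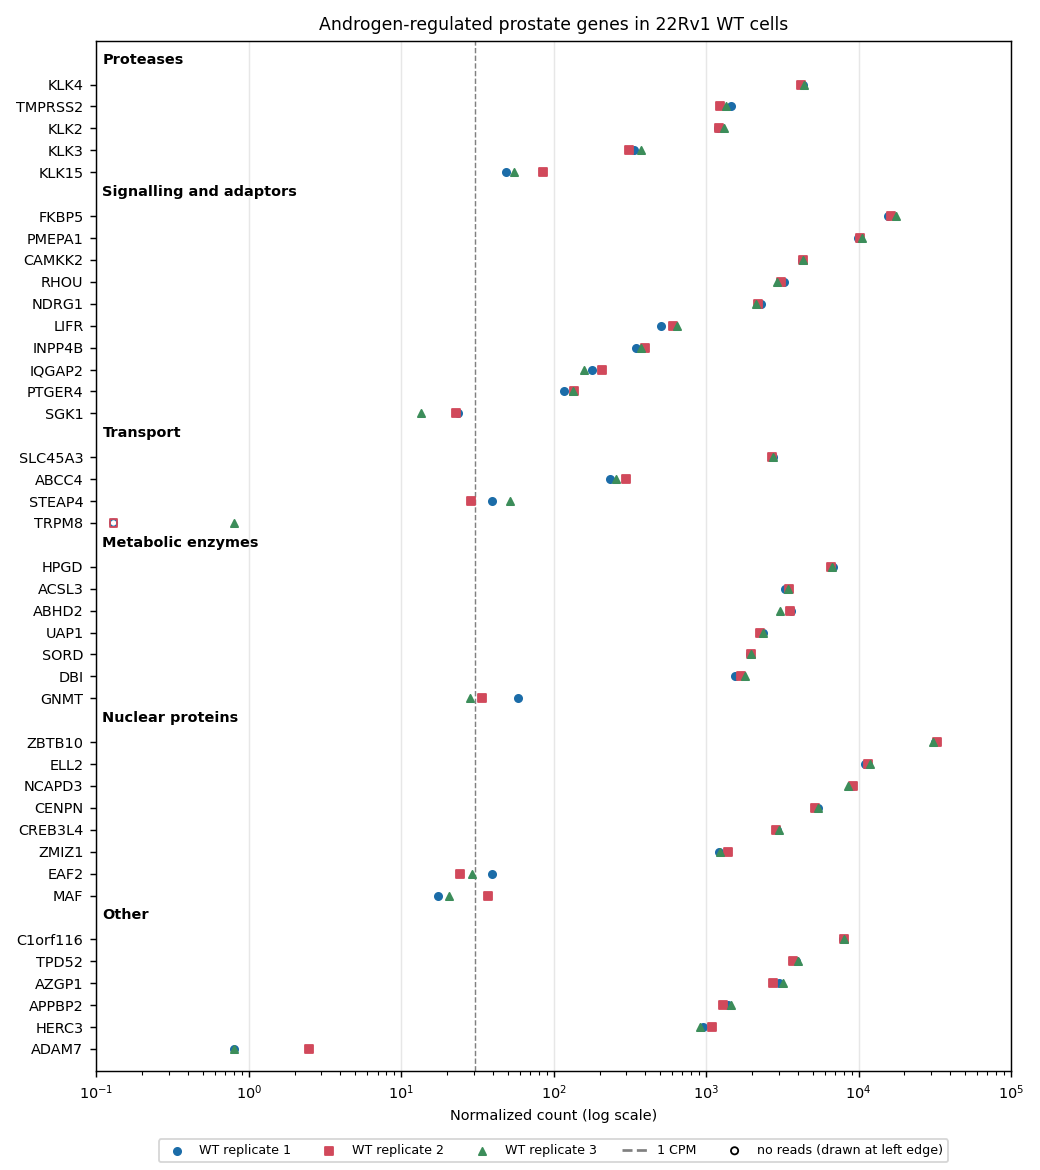
Normalized counts of the 40 androgen-regulated genes in 22Rv1 WT cells, on a log scale, grouped by role, with 1 point for each of the 3 libraries and a dashed line at 1 CPM (30.3 normalized counts). The 33 expressed genes lie right of the line in each library, from KLK15 at a mean of 62.9 to ZBTB10 at a mean of 31763, and TRPM8 and ADAM7 lie far to its left.

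The secreted proteases were led by KLK4 and not by KLK3. KLK4, a kallikrein that cleaves matrix and other kallikreins, had 4310.6, 4183.9 and 4389.8 normalized counts in replicates 1, 2 and 3 (4295 ± 104). KLK2, the kallikrein that activates the KLK3 product, had 1203.3, 1210.1 and 1308.4 (1241 ± 58.8). KLK3, which encodes PSA, had 334.2, 311.4 and 376.3 (341 ± 32.9). The ranges of the 3 genes did not overlap, and each of them was highest in replicate 3. KLK15, a kallikrein that can activate the KLK3 product in vitro, had 49, 84.6 and 55.1 normalized counts (62.9 ± 19), from only 62, 100 and 70 reads. TMPRSS2, a transmembrane serine protease and the usual fusion partner of ETS genes in prostate cancer, had 1460, 1226.2 and 1343.1 (1343 ± 117) and was highest in replicate 1. Per kilobase KLK4 reached 3033 ± 73.3, KLK2 439 ± 20.8, TMPRSS2 389 ± 33.9, KLK3 233 ± 22.5 and KLK15 46.4 ± 14. Among all expressed genes, 94.2% had a lower level per kilobase than KLK4, 59.8% than KLK2 and 41.7% than KLK3.

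Ratios within a library do not depend on its depth. The reads of KLK2 were 3.6, 3.89 and 3.48 times those of KLK3 in replicates 1, 2 and 3, a mean of 3.65 ± 0.21. Part of this ratio was length, since the KLK2 transcript used here has 2829 bases and that of KLK3 1464, and per kilobase the ratio was 1.89 ± 0.109. KLK4 had 12.7 ± 0.907 times the reads of KLK3, and 13.1 ± 0.938 times per kilobase, since these transcripts are close in length. KLK4 had 3.46 ± 0.114 times the reads of KLK2, and 6.92 ± 0.228 times per kilobase. The order KLK4, KLK2, KLK3 was the same in each of the 3 libraries on both scales. The sizes depend on the length used, and with the union of annotated exons KLK4 had 29.2 times the level of KLK3 and 11 times that of KLK2, and KLK2 2.66 times that of KLK3.

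The kallikrein genes sit together on chromosome 19, and the 4 members are neighbours there. In GRCh37 coordinates KLK15 lies at chr19:51328545-51340469 on the minus strand, KLK3 at chr19:51358171-51364020 on the plus strand, KLK2 at chr19:51364824-51383823 on the plus strand and KLK4 at chr19:51409607-51414651 on the minus strand. These 4 genes lie within 86.1 kb. Of the 15 kallikrein genes, 6 were expressed, namely the 4 members, KLK1 at 589 ± 20.2 and KLK11 at 465 ± 18.7 normalized counts. KLK5, KLK6, KLK7, KLK9 and KLK12 had no read in any library, which allows up to 0.0777 to 0.0841 CPM depending on the library, by counting error alone. KLK8, KLK10, KLK13 and KLK14 had reads but stayed below 1 CPM in at least 1 library. KLK4 took 61.1% ± 0.248 of the reads on the family, KLK2 17.6% ± 0.507 and KLK3 4.84% ± 0.344. The 4 members together took 84.5% ± 0.525. KLK2 and KLK3 are close copies, with coding sequences that are 85.3% identical over 783 bases. Their longest identical stretch is 60 bases, shorter than a read of this study, and the other pairs among the 4 members are 52.6% to 56.4% identical. How reads that map to several places were counted is not given in the sources used here, so reads shared by KLK2 and KLK3 may have been left out or split.

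The promoters of KLK3 and KLK2 carry a known androgen response element, shown here because the 2 genes are near copies with different levels. The windows below run over the 250 bases before the RefSeq transcription start, with the 15-base element in capitals. They were taken from RefSeq promoter windows of GRCh38.p14, and the GRCh37 positions come from an exact match of each to that genome, which occurred once. The KLK2 window lies inside the GENCODE span given above for KLK2, because that span begins before the RefSeq start used here.
KLK3 (chr19:51357921-51358170, plus strand): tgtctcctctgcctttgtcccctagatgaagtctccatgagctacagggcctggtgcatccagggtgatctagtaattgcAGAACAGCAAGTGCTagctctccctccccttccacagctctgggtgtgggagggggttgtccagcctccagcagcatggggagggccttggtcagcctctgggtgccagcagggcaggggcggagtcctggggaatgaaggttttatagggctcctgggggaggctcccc
KLK2 (chr19:51376445-51376694, plus strand): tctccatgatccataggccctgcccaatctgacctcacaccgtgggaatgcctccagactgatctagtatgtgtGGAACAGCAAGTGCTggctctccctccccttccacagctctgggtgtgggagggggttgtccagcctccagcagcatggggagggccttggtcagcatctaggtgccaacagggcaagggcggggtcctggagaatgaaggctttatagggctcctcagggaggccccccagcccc
The element lies at -170 to -156 of KLK3 and, in the alignment of the windows, at -176 to -162 of KLK2. Counted from 1 at its 5′ end, the KLK2 element differs from that of KLK3 by 1 substitution, A1G. The full RefSeq windows, which also hold the 50 bases after the start, were 87.7% identical over 269 aligned bases. Against the full inverted repeat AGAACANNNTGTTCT, the KLK3 element has the substitutions T10A and T13G. These letters are a description of the reference genome, and protein binding was not measured in these libraries.

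All promoters were searched in the same way for the half-site AGAACA and for the inverted repeat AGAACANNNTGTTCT, which contains it, on both strands. Windows of 250 bases before to 50 after the start were on hand for 32 of the 40 members, as 64 windows, and for TMPRSS2, NDRG1, SORD, ELL2, ZBTB10, ZMIZ1, TPD52 and ADAM7 there was no entry. The half-site occurred in 8 of the 64 windows (12.5%), of 7 genes, while 14.8% of all 35116 promoter windows held it. The inverted repeat occurred in 0 member windows and in 1 of all windows (0.00285%). The genes with a half-site were KLK3, FKBP5, PMEPA1, LIFR, IQGAP2, SGK1 and TRPM8. They include members at the top of the order by level (FKBP5, PMEPA1) and members below 1 CPM (SGK1, TRPM8). Half-sites of the abundant pair are shown with 10 bases on either side and the half-site in capitals, and PMEPA1 has one in each of 2 windows.
FKBP5 (chr6:35696345-35696370, minus strand): ccactaccccAGAACAaactcctacc
PMEPA1 (chr20:56286491-56286516, minus strand): tgacttctccAGAACAagcctcctgg
PMEPA1 (chr20:56285847-56285872, minus strand): ctgaagaatgTGTTCTtgtagcactc
The FKBP5 half-site begins at the start itself, at 1, and those of PMEPA1 begin at 23 and -229 from their own starts. The share of windows with a half-site among members was near that of all promoters, and elements farther away, which androgen targets are known to use, were outside the windows.

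The signalling genes and adaptors spanned abundant and scarce members. FKBP5, a co-chaperone of steroid receptors that both glucocorticoid and androgen induce, had 15634.6, 16292.8 and 17481.3 normalized counts in replicates 1, 2 and 3 (16470 ± 936). At 4392 ± 250 per kilobase of the canonical transcript it ranked first of the 40, and 96.2% of expressed genes lay below it. The rank depends on that length, since with the union of annotated exons FKBP5 had 1550 per kilobase and ranked 5, after ZBTB10, KLK4, PMEPA1 and ELL2. PMEPA1, a membrane protein that dampens TGF-beta signalling, had 9908.2, 10145.7 and 10504.5 (10186 ± 300). Both genes were lowest in replicate 1 and highest in replicate 3. CAMKK2, a kinase upstream of AMPK, was steady at 4313 ± 43.4, and RHOU, an atypical small GTPase, had 3073 ± 155. RHOU shares its row with an overlapping gene, so its value may include reads of that gene. NDRG1, a stress-responsive protein, had 2205 ± 87.0, and 24.9% of its transcript overlaps an annotated non-coding RNA with no row of its own.

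The receptors, the scaffold and the lipid phosphatase of this group were much lower. LIFR, the receptor of leukaemia inhibitory factor, had 506.4, 607.6 and 646.3 normalized counts (587 ± 72.2), and replicate 1 was the lowest. INPP4B, a phosphoinositide phosphatase that restrains AKT signalling, had 374 ± 27.5. IQGAP2, a scaffold protein, had 177.8, 208.2 and 157.5 (181 ± 25.5) and was highest in replicate 2. PTGER4, a receptor of prostaglandin E, had 129 ± 11.0. SGK1, a kinase known for its induction by glucocorticoid, had only 23.7, 22.8 and 13.4 (20 ± 5.70) and was below 1 CPM in each library. FKBP5 and SGK1, both known targets of the glucocorticoid receptor as well, thus stood at opposite ends of the group, with 4392 against 6.15 normalized counts per kilobase. Of the 10 signalling genes 9 were expressed.

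Among transporters and channels SLC45A3 stood alone. SLC45A3, the prostate membrane protein also called prostein, had 2753.4, 2715.6 and 2739.7 normalized counts (2736 ± 19.1), and its SD of 0.699% of the mean was the smallest of the expressed members. ABCC4, an exporter of organic anions and cyclic nucleotides, had 233.1, 299.6 and 255.1 (263 ± 33.9) and was highest in replicate 2. STEAP4, a metalloreductase, had 39.5, 28.8 and 52 (40.1 ± 11.6) and was below the limit in replicate 2 alone, at 0.95 CPM. TRPM8, the cold-sensing cation channel often used as an androgen target in prostate, had 0, 0 and 1 reads. A count of 0 allows up to 3 reads, or 0.0784 CPM in replicate 1 and 0.0841 CPM in replicate 2, so TRPM8 was at or under the counting limit in these libraries. Of the 4 genes in this group 2 were expressed.

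Of the 7 genes of metabolism 6 were expressed. HPGD, which inactivates prostaglandins, was the highest of them by count, with 6763.7, 6543.2 and 6662.6 (6656 ± 110), and the 3 libraries lay within 1.03-fold of each other. DBI, a binding protein of acyl-CoA, had 1539.8, 1693.3 and 1808.4 (1680 ± 135), lowest in replicate 1. Its transcript of 564 bases is the shortest of the list, and per kilobase DBI ranked 4 at 2980 ± 239, but 13 with the union of exons, at 673. ACSL3, an acyl-CoA synthetase, had 3406 ± 103, and UAP1, which makes UDP-N-acetylglucosamine, had 2326 ± 71.4. ABHD2, a lipid hydrolase, had 3584.5, 3568.6 and 3035.7 (3396 ± 312), with replicate 3 below the others. SORD, which turns sorbitol into fructose, had 1965 ± 22.2. A pseudogene of SORD, SORD2P, matches 22.2% of the SORD transcript at 98% identity and had its own 248, 207 and 222 reads. A second annotated SORD2P entry matches 48.2% at 98.9% identity and has no row, so the reads of SORD are uncertain by an unknown share. GNMT, a methyltransferase that makes sarcosine from glycine, had 58.5, 33.8 and 28.3 (40.2 ± 16.1) and was above 1 CPM in replicates 1 and 2 only. A second row under its symbol held 1, 0 and 0 reads and was left out.

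The nuclear proteins had the highest median level per kilobase of the role groups, 1285. The median was 389 for the proteases, 392 for signalling, 611 for metabolism and 24.4 for transport. ZBTB10, a zinc finger transcription factor, had 31800, 32505.2 and 30983.7 normalized counts (31763 ± 761), the highest count of the 40 genes, and ranked second per kilobase at 3196 ± 76.6. ELL2, an elongation factor of RNA polymerase II, had 11071.2, 11507.3 and 11891.7 (11490 ± 411). Its partner EAF2, by contrast, had only 39.5, 24.5 and 29.1 (31.0 ± 7.68) and passed 1 CPM in replicate 1 alone. CREB3L4, a membrane-bound transcription factor, had 2904.3, 2857.8 and 3012.1 (2925 ± 79.2). NCAPD3, a subunit of condensin, had 8913 ± 320, and 25.6% of its transcript overlaps JAM3, which had 1, 6 and 1 reads. CENPN, a centromere protein, had 5347 ± 136. ZMIZ1, a transcriptional coregulator, had 1283 ± 96.5. MAF, a leucine zipper transcription factor, had 17.4, 37.2 and 20.5 (25 ± 10.7) and passed the limit in replicate 2 alone. A pseudogene, ELL2P1, matches 32.3% of the ELL2 transcript at 96.5% identity and has no row of its own.

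The 6 remaining genes have varied roles. C1orf116, a little described gene, had 7954.4, 7985.2 and 8063.2 normalized counts (8001 ± 56.1), within 1.01-fold. AZGP1, a secreted glycoprotein of prostate fluid, had 3002.2, 2746.9 and 3180.6 (2977 ± 218) and, with a transcript of 1181 bases, was among the first 10 per kilobase at 2520 ± 185. Replicate 2 was the lowest for AZGP1. TPD52, a vesicle protein, had 3868 ± 143, and APPBP2, which binds the amyloid precursor protein, had 1382 ± 87.5. HERC3, a ubiquitin ligase, had 954.4, 1093.4 and 908.5 (985 ± 96.3) and was highest in replicate 2, on a row that 2 identifiers share. ADAM7, an ADAM family protein known from the epididymis, had 1, 3 and 1 reads and was at or under the counting limit.

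Per kilobase the expressed members ran from IQGAP2 at 31.2 to FKBP5 at 4392, a 141-fold range. After FKBP5 and ZBTB10 came KLK4, DBI, HPGD, AZGP1, PMEPA1, ELL2, CREB3L4 and C1orf116, and the first 8 of these 10 lay above 1883, the level that 90% of expressed genes do not reach. Neighbours in this order often could not be separated. Of the 39 neighbouring pairs, 18 (46.2%) had ranges over the 3 libraries that overlapped. KLK4 and DBI overlapped at 1.02-fold, HPGD and AZGP1 at 1.01-fold, and PMEPA1 and ELL2 at 1.04-fold. The ranges of ACSL3 and KLK2 did not overlap at 1.39-fold. The widest gap among expressed members was between ZMIZ1 at 169 and LIFR at 55.6, 3.03-fold. From LIFR down to EAF2 each gene overlapped with the next. Levels per kilobase rest on 1 canonical transcript a gene. FKBP5 stood 1.37-fold above ZBTB10 on this length, while with the union of annotated exons ZBTB10 stood 2.01-fold above FKBP5. With that length 9 of the 10 highest genes were shared, DBI giving way to CENPN, and 8 members again lay above the 90% level of expressed genes.

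**Figure D2:**
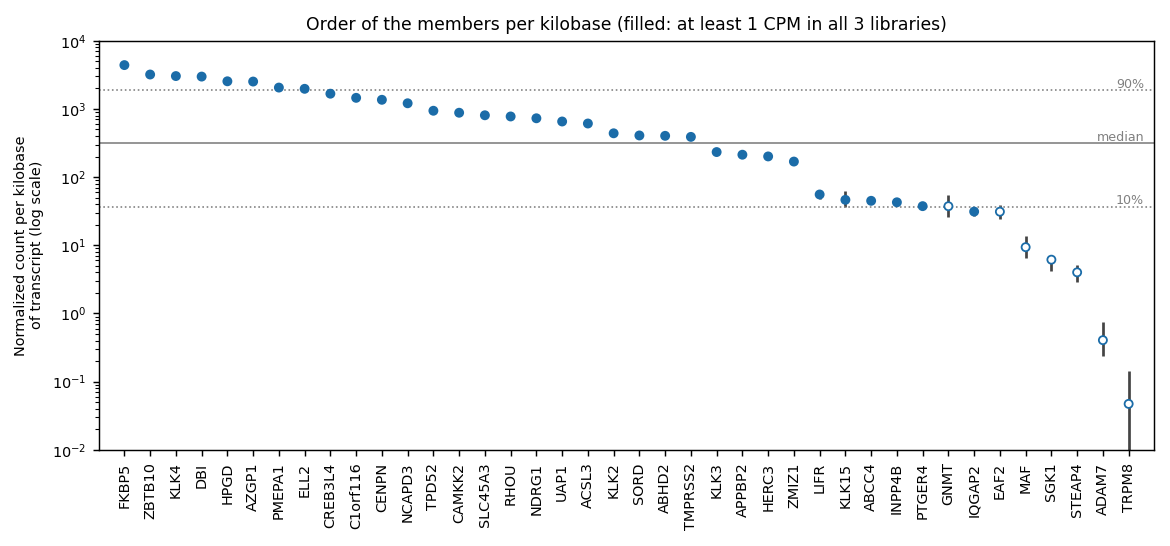
The 40 androgen-regulated genes in the order of their normalized count per kilobase of canonical transcript (log scale), with points at the mean of 3 WT libraries, bars from the lowest to the highest library, filled points for genes of at least 1 CPM in each library, and lines at the 10%, 50% (315) and 90% (1883) levels of all expressed genes. FKBP5 (4392) is highest, the first 8 genes lie above the 90% line, and a step separates ZMIZ1 (169) from LIFR (55.6).

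Most of the members differed between WT libraries when reads were taken as independent. In a chi-square test of the reads of each gene over the 3 libraries, with Benjamini-Hochberg adjustment over all 14646 genes tested, 24 of the 38 members tested (63.2%) had an adjusted p under 0.05, beside 42.2% of all genes tested. Of the members averaging 1000 reads or more per library, a limit chosen after the data had been seen, 16 of 26 (61.5%) differed, beside 49.9% of all such genes. The differences were small in size. Over the expressed members the median SD was 4.74% of the mean and the median ratio of highest to lowest library 1.09, beside 4.88% and 1.1 for all expressed genes. In tests of fewer libraries the count was 12 with replicate 2 left out, 15 with replicate 3 left out and 17 with replicate 1 left out, beside 22.7%, 23.7% and 27.2% of all genes tested.

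When the variance of the test also held edgeR's trended dispersion, which allows for replicate spread, 0 members differed, beside 0.389% of all genes tested. At an unadjusted p under 0.05 there were 2 members, ABHD2 and AZGP1, of 790 genes in all, and their adjusted p with edgeR's trended dispersion was 0.416 and 0.918. With edgeR's common dispersion, which corresponds to a coefficient of variation of 5.58%, GNMT was the 1 member to differ (adjusted p = 0.0363), among 494 genes (3.37%). GNMT had 74, 40 and 36 reads, highest in replicate 1. The dispersions were fitted to the same 3 libraries.

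The steadiest and the most variable members can be named by their values. They were picked by the same counts that the chi-square test uses, so its results for them are no separate support. SLC45A3 and C1orf116 varied by 0.699% and 0.701% of the mean, CAMKK2 by 1.01% and SORD by 1.13%, and none of these differed between libraries in the chi-square test (adjusted p 0.885, 0.682, 0.655 and 0.79). Among genes of at least 100 reads the largest ratios of highest to lowest library were those of IQGAP2 (1.32), ABCC4 (1.29), LIFR (1.28), KLK3 (1.21) and HERC3 (1.20). All 5 differed in the chi-square test, with adjusted p of 0.0326 for IQGAP2, 0.0155 for ABCC4, 0.000118 for LIFR, 0.0475 for KLK3 and 0.000101 for HERC3. With edgeR's trended dispersion in that test, their unadjusted p ran from 0.0799 for HERC3 to 0.394 for KLK3. The smallest adjusted p belonged to an abundant gene with a modest ratio, FKBP5 at 1.12-fold (8.43e-28). KLK2 and KLK4 did not pass the threshold (adjusted p 0.0661 and 0.094).

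**Figure D3:**
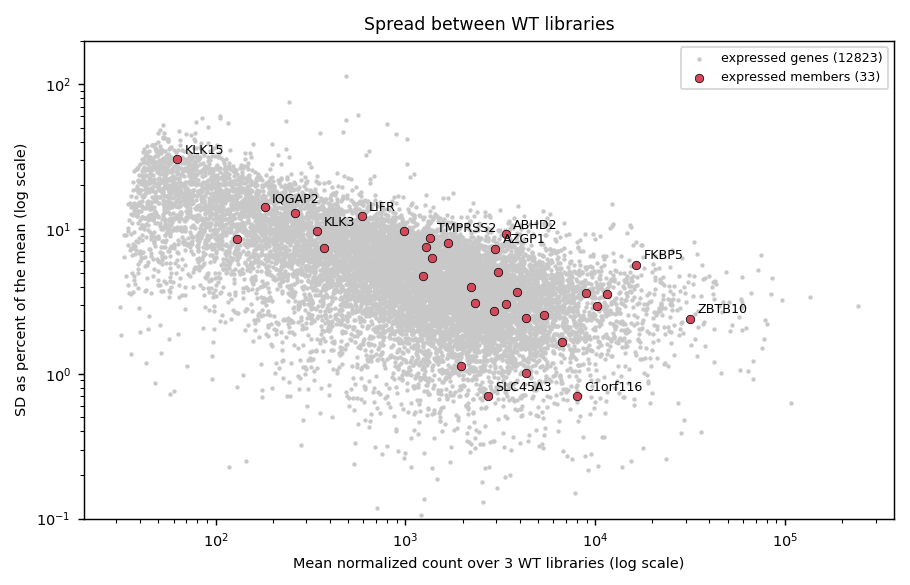
SD over the 3 WT libraries as a percent of the mean, against the mean normalized count, both on log scales, for all expressed genes with a transcript length (grey) and the 33 expressed members (red). The members lie within the grey cloud, from KLK15 (62.9 counts, 30.3%) to ZBTB10 (31763 counts, 2.40%), with SLC45A3 (0.699%) and C1orf116 (0.701%) near its lower edge.

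No library was the highest for most of the expressed members. The highest library was replicate 1 for 7 of the 33 genes (21.2%), replicate 2 for 11 (33.3%) and replicate 3 for 15 (45.5%), beside 31.5%, 32.5% and 36% of all expressed genes. The median deviation from the mean of the 3 libraries was -0.017, 0.002 and 0.011 on the log2 scale for members in replicates 1, 2 and 3. Over all expressed genes it was -0.002, -0.005 and 0.004. Genes with their highest value in replicate 3 included FKBP5, PMEPA1, ELL2, DBI, AZGP1, KLK2, KLK3 and KLK4, while ZBTB10, HERC3, IQGAP2 and ABCC4 were highest in replicate 2 and TMPRSS2, HPGD and ABHD2 in replicate 1. The 3 proteases KLK2, KLK3 and KLK4 moved by 0.08, 0.14 and 0.03 above the mean in replicate 3 on the log2 scale.

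The highest library was also counted by transcript length. Of the 24 expressed members longer than the median transcript of expressed genes, 10 were highest in replicate 2 and 9 in replicate 3, and of the 9 shorter ones 1 was highest in replicate 2 and 6 in replicate 3. Of all expressed genes above that length 43.7% were highest in replicate 2 and 28.2% in replicate 3, and of the others 21.4% and 43.8%. The difference between long and short members was not tested, and it runs the same way as over all genes. Across the 33 expressed members the Spearman correlation of length with the log2 deviation was -0.09 in replicate 1, 0.49 in replicate 2 and -0.28 in replicate 3. Across all 12823 expressed genes with a length it was -0.09, 0.31 and -0.22. These are correlations across genes, which share a library and its RNA fragmentation and are not independent, and the deviations of a gene in the 3 libraries sum to about zero. The part of length in the differences between libraries was not tested.

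**Figure D4:**
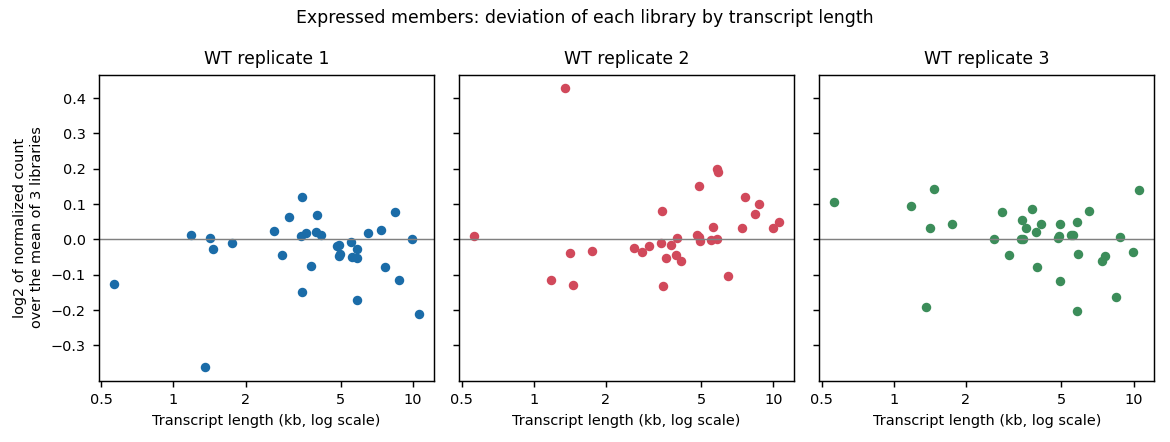
Deviation of each WT library from the mean of the 3 libraries, as log2 of the normalized count over that mean, against transcript length in kb (log scale), with 1 point for each of the 33 expressed members. In replicate 2 the longer members tend to lie above 0 (Spearman 0.49), in replicate 3 below it (-0.28), and KLK15 is the point farthest from 0 in replicate 2, at 0.43.

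Transcription factors and coregulators known from androgen response were expressed beside the targets. NR3C1, the glucocorticoid receptor, which binds the same half-sites, had 630.5, 758.2 and 640 normalized counts (676 ± 71.1) and was highest in replicate 2. The pioneer factors FOXA1, HOXB13 and GATA2 had 12807 ± 212, 9956 ± 200 and 7064 ± 46.7. Per kilobase FOXA1 at 3650 ± 60.5 and HOXB13 at 3276 ± 65.9 lay between FKBP5 at 4392 and KLK4 at 3033, but with the union of exons, at 2901 and 3276, both lay above FKBP5 at 1550. The coactivator and corepressor genes NCOA1, NCOA2, NCOA3, NCOA4, EP300, CREBBP, MED1 and NCOR1 had means of 1033 to 7444. All 12 genes named here were expressed, and 11 of them differed between libraries in the chi-square test, beside 42.2% of all genes tested and 49.9% of those averaging 1000 reads or more. With edgeR's trended dispersion 0 differed, where NCOA2 and EP300 had an unadjusted p under 0.05 (2 genes), and 0 differed with its common dispersion. The highest library was replicate 2 for 8 of the 12, NR3C1 among them, and replicate 3 for 3, beside 32.5% and 36% of all expressed genes. Those 8 have transcripts of 6778 to 10790 bases, while FOXA1, HOXB13, GATA2 and NCOA4 have 3039 to 3509. Of all expressed genes longer than the median transcript, 43.7% were highest in replicate 2. The part of length in this count was not tested. Of the 33 expressed members, 11 were also highest in replicate 2 and 15 in replicate 3, with FKBP5, PMEPA1, KLK2, KLK3 and KLK4 among the 15. With 3 libraries there are too few samples for a correlation, and none was computed.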

How the data were processed

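RNA-seq was analysed from 3 libraries of 22Rv1 WT cells, grouped by the genotype in the labels. The authors aligned paired-end reads to GRCh37 (hg19) using HISAT2, obtained counts per gene from HTSeq and scaled them by DESeq2. Each deposited value is therefore a normalized signal, a gene's count over the size factor of its library. The GENCODE release, the strandedness and the handling of reads with several map positions are not given in the sources used here. Reads were recovered from the step between low values (size factors 1.266, 1.182 and 1.27; 100% of values whole within 0.051 normalized counts), and the 1976 rows equal to a neighbour in each library were merged, which left 27024 of 29000 rows. The recovery and the test were checked on simulated data. Depth was 38252744, 35675670 and 38629080 reads.

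The members and the gene lists were chosen with earlier results of these data known. All members are named, with the value in every library for the kallikreins, TMPRSS2, the 10 highest per kilobase, those under 1 CPM in a library, and the 5 largest ratios between libraries among genes of at least 100 reads. Genes averaging 10 reads or more were tested by a chi-square test of homogeneity (scipy 1.17.1), adjusted by Benjamini-Hochberg over all genes tested with a threshold of 0.05, and again with dispersions from edgeR 4.0.16 under R 4.3.3. Lengths came from canonical transcripts in GENCODE annotation lifted to GRCh37, near copies from minimap2 2.31, and promoters from RefSeq (GRCh38.p14). Alternatives were other scalings (totals, TMM, DESeq2 1.42.0), limits, lengths and left-out replicates. Protein sequences were not used here, and 2 genes of the lists beside the members are not reported here. Intervals and floors of 3 reads cover counting error only, and the floors in CPM use the read total of each library.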

Additional observations from a re-analysis of the deposited data

How the results depend on the processing

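The number of members that differed between WT libraries, 24, moved most with the test. It was 0 with edgeR's trended dispersion (0.389% of all genes tested) and 1 with its common dispersion (3.37%), which add variance, and 12 to 17 with each replicate left out (22.7% to 27.2%), where fewer libraries were compared. It was 22 to 25 under the other scalings, read minimums and with every row kept (39.5% to 43.9% of all genes tested). Among members of at least 1000 reads it was 16 of 26, beside 49.9% of all such genes. That limit was added once the data had been seen. The median level of 1823 normalized counts was 2736 over the expressed members, 423 per kilobase, and 1789 to 1864 with each replicate left out. The KLK2 to KLK3 ratio of 3.65 was 1.89 per kilobase, because the transcripts differ in length, and 3.54 to 3.74 with each replicate left out. The number of expressed members was 33 under each scaling, beside 12877 of all 27024 counted genes. At 5 CPM it was 31, beside 10985 of all counted genes, and at 0.5 CPM 37, beside 13557. With each replicate left out it was 33 to 34. Per kilobase of the union of annotated exons, 33 of the 40 levels moved by more than 1 SD and DBI alone moved by over 5 ranks, from 4 to 13. No paired analysis was possible because only 1 group was analysed. Depth limits TRPM8 and ADAM7, at 3 reads or fewer in each library.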
